A study of Danio rerio with 26 samples.

Results

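Ubiquitin-conjugating enzymes, or E2 enzymes, take activated ubiquitin from an E1 enzyme and, together with an E3 ligase, place it on a substrate protein. The E2 decides much of what is built, from a single ubiquitin to chains that send a protein to the proteasome or that act as signals, and a few E2 enzymes carry SUMO or NEDD8 in place of ubiquitin. Eggs store transcripts of this machinery, and early embryos use it for fast cell cycles and for turning over maternal proteins. The genes described here are those whose name in the embryo table starts with ube2, with case ignored, which gave 41 of the 32520 genes listed, 2 of them (UBE2M and UBE2O) named in capitals. They were joined to the other tables by gene identifier, and all 41 identifiers were found in the reference gene names. The identifier ENSDARG00000114670 is ube2c in the tables and UBE2C in the reference. A second identifier, ENSDARG00000101618, is also named ube2c in the tables but DNTTIP1 in the reference, so it is counted as a member by its name and described by its identifier. E2 genes under other names, such as cdc34a and cdc34b, are not members. The a and b copies, and the ube2d genes among themselves, are related in sequence, so their reads could be split between copies by the quantification and their single values carry that uncertainty.

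Total RNA, depleted of ribosomal RNA in the oocyte and embryo sets, was sequenced from 26 libraries of zebrafish, all with the genotype given as AB, TF and TLF, in 10 groups. Whole embryos were taken at 0, 2, 4 and 6 hpf, where hpf stands for hours after fertilization, with 3 biological replicates per time and 20 dechorionated embryos pooled in each. Oocytes were taken at stages I, II, III and IV, with 2 biological replicates per stage and 50 oocytes pooled in each. Stage I and II oocytes were released with a mixture of collagenases, stage III oocytes with a single collagenase and stage IV oocytes mechanically with no enzyme, so where stage III or IV is compared with another stage, stage and isolation cannot be told apart. The last pair of groups are whole embryos at 4 hpf labelled znf281b KD, a knockdown of a zinc finger gene, and pCas13d alone (3 libraries each). Cas13d enzymes cut RNA that matches a guide. The labels name it for the pCas13d alone group and give no agent beyond the name for the znf281b KD group. These libraries were read on another sequencer than the rest. The sources used here give no guide RNAs, pool sizes or replicate origins for that experiment, so its p-values reflect only how these libraries varied, and that variation may be technical. Values are TPM, a unit that is per transcript length and sums to the same total in every library, so a value is a share and not an amount per cell. In pooled tissue, fewer cells of a type and less RNA per cell cannot be told apart. Log2 changes are on the log2(TPM + 1) scale with their standard error (SE), and calls are limma tests whose Benjamini-Hochberg adjusted p, over all genes tested in a table, was under 0.05.

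Libraries of the same group correlated across genes at Pearson's r of 0.9856 or more in embryos, 0.9755 in oocytes and 0.9853 in the knockdown table, and 0 pairs held identical values. The summed TPM of 10 oocyte and maternal markers was 77.78 to 84.03 at 6 hpf, against 2826.58 to 3075.78 at 0 hpf, and that of 12 markers of genome activation was 2948.63 to 3376.57 at 6 hpf, against 343.01 to 366.74 at 0 hpf. znf281b was at 146.63 to 171.29 TPM in znf281b KD embryos, against 219.38 to 268.81 TPM in pCas13d alone embryos (log2 change -0.69, limma adjusted p = 0.00991).

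E2 transcripts were maternal almost without exception. Of the 32520 genes listed, 14303 had a mean of at least 1 TPM at 0 hpf, and 2216 others had it at 4 or 6 hpf. Of the 41 members, 40 had such a mean at 0 hpf, and ube2e2 was below it. Their summed level was 2801 ± 64.9 TPM at 0 hpf, 2789 ± 58.7 TPM at 2 hpf, 1774 ± 170 TPM at 4 hpf and 1596 ± 75.0 TPM at 6 hpf (SD, n = 3 each), which is 0.280%, 0.279%, 0.177% and 0.160% of the library. The leading members of the egg were ube2c (ENSDARG00000114670) with 217 ± 6.84 TPM, ube2d2 with 193 ± 6.63 TPM, ube2s with 174 ± 2.57 TPM and ube2al with 170 ± 2.06 TPM. By 6 hpf the order was ube2d2, ube2c, ube2g1b, ube2e1 and ube2na. ube2s and ube2al had left the leading 5.

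Of the 40 maternal members, 22 were at least 2-fold lower at 6 than at 0 hpf and called, here named cleared, and the other 18, named kept, moved less or were not called. On TPM as deposited no maternal member was called at least 2-fold higher at 6 hpf, a class of 7.01% among all 14303 maternal genes. Over all genes tested, maternal or not, 16.2% were called at least 2-fold higher and 51.7% at least 2-fold lower. The classes depend on that scale. After median-of-ratios scaling, which divides each library by its median gene ratio to a reference, 14 members (ube2e2 among them) were called at least 2-fold higher and 8 at least 2-fold lower, where 31.9% and 23% of all genes were. Cleared members were 55% of the maternal members, near the 59.1% of all maternal genes, and kept members were 45%, against 33.9% of all maternal genes. Without the fold minimum, 6 members were called higher and 30 lower at 6 hpf than at 0 hpf, where 21.9% of all 16328 genes tested were called higher and 67.2% lower. The median log2 change was -1.07 for the members and -1.06 for all genes tested as deposited, and 0.48 for the members and 0.10 for all genes after scaling.

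**Figure D1:**
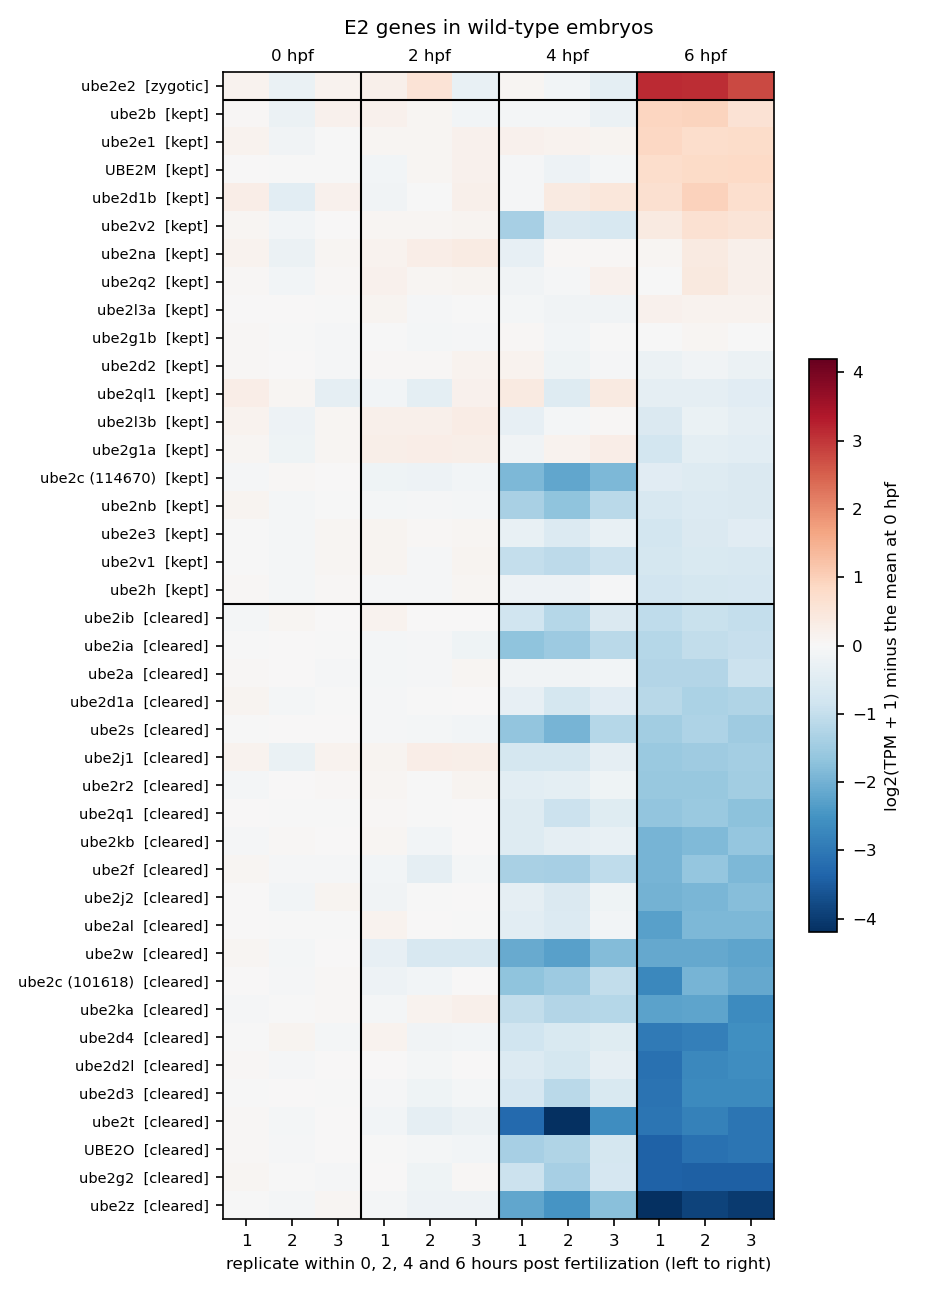
Heat map of the 41 E2 genes (rows, with their class in brackets) in the 12 embryo libraries (columns, 3 replicates per time). Colour gives log2(TPM + 1) minus the gene's mean at 0 hpf. The 0 and 2 hpf columns are pale, ube2t and ube2z are blue from 4 hpf on, and ube2e2 is red at 6 hpf.

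These directions depend on how libraries are scaled, because the median of all genes was itself -1.06. After median-of-ratios scaling, which puts that median at 0.10, 22 members were called higher and 14 lower at 6 hpf than at 0 hpf, among 44.9% and 39.2% of all genes. Neither scale gives amounts per embryo. 14 members were lower on both scales: ube2z, ube2g2, UBE2O, ube2t, ube2d3, ube2d2l, ube2d4, ube2ka, ENSDARG00000101618, ube2w, ube2al, ube2j2, ube2f and ube2kb. 6 were higher on both: ube2e2, ube2b, ube2e1, UBE2M, ube2d1b and ube2v2. Scaling raised the log2 changes, so these are simply the 14 members lower after scaling and the 6 higher as deposited. Of all genes, 39.2% were lower after scaling and 21.9% higher as deposited. Another 11 were lower as deposited and higher after scaling, 5 were lower as deposited and not called after scaling, and 5 were not called as deposited and higher after scaling. The shares of all genes with these patterns are not given here.

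**Figure D2:**
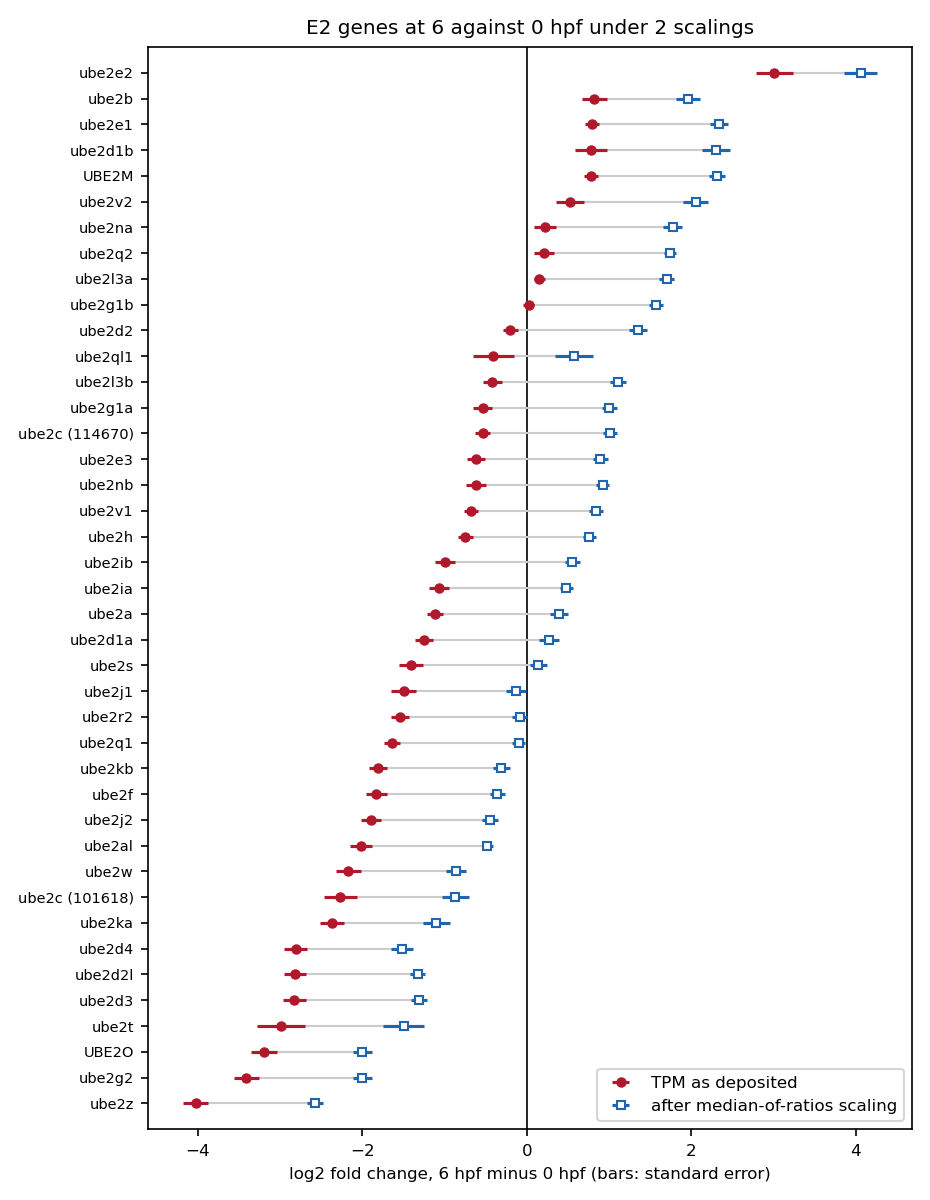
Log2 fold change of each E2 gene, 6 hpf minus 0 hpf (horizontal axis), from TPM as deposited (filled circles) and after median-of-ratios scaling (open squares), with standard errors from limma as bars. From ube2kb downwards all genes lie left of 0 and were called lower on both scales. From ube2g1b upwards all lie right of 0 on both scales, and the 6 uppermost were called higher on both.

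No member was called between 2 and 0 hpf, where 0% of all genes were called higher and 0.0122% lower in limma. An unadjusted limma p under 0.05 was found there for 1 of 41 members and for 625 of all 16328 genes tested. The largest change there was that of ube2w (log2 change -0.57, not called). It had 11.90, 9.30 and 9.29 TPM at 2 hpf, against 16.31, 14.55 and 15.72 TPM at 0 hpf. Between consecutive times, members were called only from 2 hpf on. At 4 hpf against 2 hpf 0 members were called higher and 28 lower (11% and 54.7% of all genes), with a median log2 change of -0.51 for the members and -0.43 for all genes. At 6 hpf against 4 hpf 12 were called higher and 19 lower (22.8% and 55.8% of all genes), with medians of -0.29 for the members and -0.56 for all genes. After scaling those counts were 10 higher and 15 lower for 4 against 2 hpf (26.4% and 21.3% of all genes), and 24 higher and 11 lower for 6 against 4 hpf (42.7% and 35.4%). The scaled medians were 0.05 for the members and 0.05 for all genes at 4 against 2 hpf, and 0.64 for the members and 0.10 for all genes at 6 against 4 hpf. All 15 members lower after scaling at 4 hpf, and all 12 members called higher at 6 against 4 hpf, held the same call on both scales. Scaling raised the log2 changes in both comparisons, so this agreement was largely set in advance and lends those calls no further support.

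On TPM as deposited, 9 of the 22 cleared members had their larger negative log2 change between 2 and 4 hpf and 13 between 4 and 6 hpf. At 4 against 2 hpf 95.5% of the cleared members were called lower, beside 81.1% of all 8447 cleared genes. At 6 against 4 hpf it was 77.3% of the cleared members, beside 90.1% of all cleared genes. Of the 22 cleared members, 14 were lower at 6 than at 0 hpf after scaling too, 5 were not called and ube2a, ube2ia and ube2ib were called higher. The split by larger change and the split after scaling are not given here for all cleared genes. The early group holds ube2t, ube2z, ube2s, ube2w, ube2ia, ENSDARG00000101618, ube2ka, ube2f and ube2ib, and all 9 were lower at 4 than at 2 hpf on both scales. The later group holds ube2al, ube2d2l, ube2d3, ube2d4, ube2g2, UBE2O, ube2j1, ube2j2, ube2kb, ube2q1, ube2r2, ube2d1a and ube2a. At 6 against 4 hpf ube2a, ube2j1, ube2q1 and ube2d1a were not called after scaling (-0.07, -0.08, -0.07 and 0.18), and the others were lower on both scales. For ube2j1 the larger scaled fall was at 4 against 2 hpf (-0.28, not called). The difference in timing between those groups was itself not tested. For ube2ka (-1.24 against -1.22), ube2j1 (-0.84 against -0.88) and ube2z (-1.98 against -1.88) the changes of the 2 to 4 and 4 to 6 hpf intervals differed by less than the SE of 0.15 of a single interval. Both intervals share the 4 hpf libraries, so the SE of their difference is larger. It was not computed, and the order may be uncertain for other members too.

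ube2t, the E2 that with the ligase FANCL attaches a single ubiquitin to FANCD2 and FANCI in DNA crosslink repair, had the largest fall of any member between 2 and 4 hpf. It had 8.80, 3.97 and 14.53 TPM at 4 hpf, against 85.87, 71.51 and 79.56 TPM at 2 hpf. All 4 hpf libraries lay far below all 2 hpf libraries. The log2 change was -3.13 (SE 0.29, limma adjusted p = 1.63e-06), and -2.55 after scaling. It had 97.60, 88.63 and 95.92 TPM at 0 hpf and 10.43, 12.20 and 10.28 TPM at 6 hpf. The change of 6 against 4 hpf was 0.39 and not called (adjusted p = 0.228), while after scaling it was 1.28 and called higher, so its direction after 4 hpf turns on the scale. In oocytes ube2t was among the leading members, with 256.78 and 230.70 TPM at stage IV, against 135.01 and 188.16 TPM at stage I. Of 14 genes of the Fanconi anaemia pathway 0 were higher and 14 lower at 6 than at 0 hpf (median log2 change -2.86), and 2 higher and 10 lower after scaling. Among all genes 21.9% were higher and 67.2% lower (median -1.06), and 44.9% and 39.2% after scaling. fancd2 had 1.21 TPM at 6 hpf, against 30.4 TPM at 0 hpf, and fancl 1.06 TPM at 6 hpf, against 17.8 TPM at 0 hpf.

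**Figure D3:**
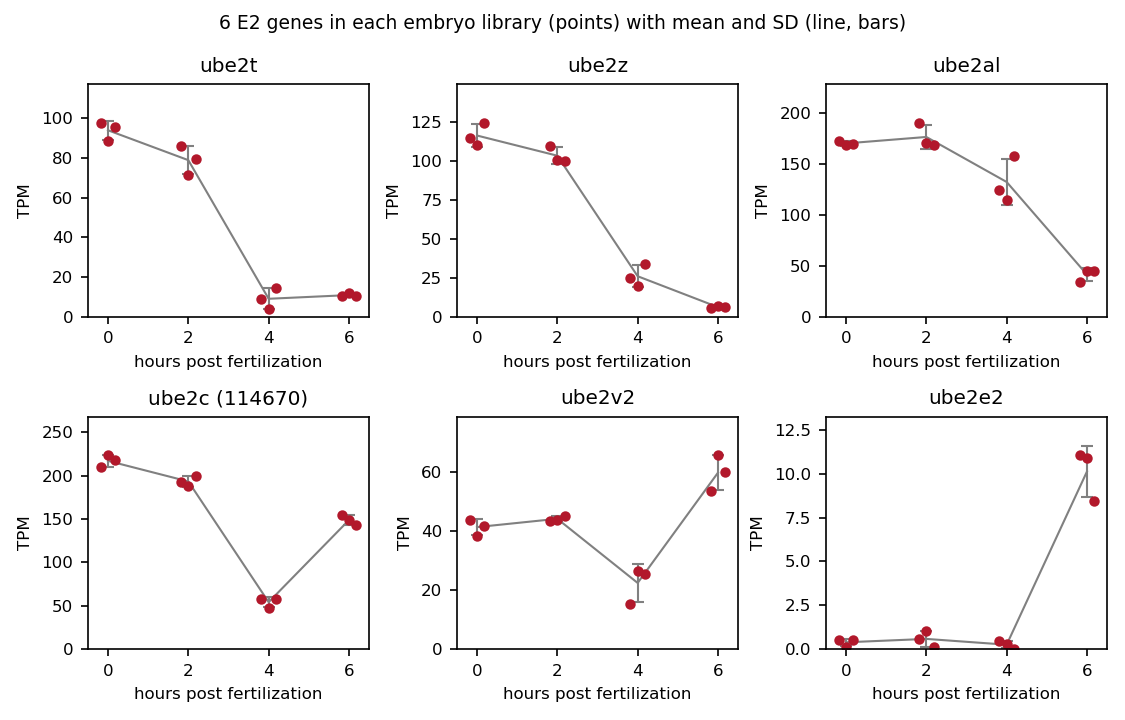
TPM (vertical axis) of 6 E2 genes in each embryo library (points, 3 per time) against hours post fertilization, with the mean and SD over replicates as a line with bars. ube2t and ube2z are low by 4 hpf, ube2al falls mostly after it, ube2c (ENSDARG00000114670) and ube2v2 are lowest at 4 hpf, and ube2e2 is near 0 until 6 hpf.

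The E2 partners of the anaphase-promoting complex (APC/C), the ligase that ends mitosis, were both lower at 4 than at 2 hpf on both scales. ube2c starts ubiquitin chains on APC/C substrates and ube2s extends them. ube2c (ENSDARG00000114670) had 57.48, 47.28 and 57.59 TPM at 4 hpf, against 192.08, 188.09 and 199.65 TPM at 2 hpf. It had 154.41, 148.51 and 143.53 TPM at 6 hpf, so every 6 hpf library was above every 4 hpf library. Both steps were called on both scales, with log2 changes of -1.82 for 4 against 2 hpf (SE 0.09, adjusted p = 3.43e-09) and 1.45 for 6 against 4 hpf (SE 0.09, adjusted p = 8.4e-09). ube2s had 54.70, 43.96 and 75.82 TPM at 4 hpf, against 168.52, 165.13 and 160.06 TPM at 2 hpf, a log2 change of -1.52 (SE 0.15, adjusted p = 2.58e-06) that was also called after scaling (-0.92). Its 62.63, 71.14 and 61.17 TPM at 6 hpf overlapped the 4 hpf libraries (log2 change 0.19, adjusted p = 0.252), though it was called higher after scaling (1.12), as ube2c was (2.39). The difference between both genes was not tested. At 0 hpf ube2c had 209.69, 223.24 and 218.14 TPM, and ube2s 171.29, 175.65 and 175.84 TPM. ENSDARG00000101618 had 7.62, 8.69 and 12.68 TPM at 4 hpf, against 23.35, 24.88 and 27.72 TPM at 2 hpf, and stood at 3.31, 6.27 and 5.28 TPM at 6 hpf, so it did not follow the other identifier after 4 hpf. Of 18 APC/C subunits and activators 1 was higher and 15 lower at 6 than at 0 hpf (median log2 change -1.66), and 7 higher and 8 lower after scaling. The shares of all genes were 21.9% higher and 67.2% lower (median -1.06), and 44.9% and 39.2% after scaling. cdc20, an activator, had 160 TPM at 6 hpf, against 509 TPM at 0 hpf, as deposited. Its change after scaling is not given here.

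The ube2d, ube2e and ube2w genes work with many RING ligases and attach the first ubiquitin, ube2w to a protein's amino terminus. Within ube2d the copies went separate ways. ube2d2l, ube2d3 and ube2d4 fell at 6 against 4 hpf on both scales (log2 changes -2.26, -2.0 and -2.15 as deposited). ube2d2l had 8.68, 12.10 and 12.82 TPM at 6 hpf, against 56.55, 49.81 and 64.35 TPM at 4 hpf. ube2d4 had 1.90, 2.11 and 2.85 TPM at 6 hpf, against 11.74, 13.71 and 15.08 TPM at 4 hpf. In both genes the 6 hpf libraries lay far below the 4 hpf libraries. ube2d3 averaged 18.3 ± 3.17 TPM at 6 hpf and 135 ± 1.19 TPM at 0 hpf (SD, n = 3 each). ube2d2 averaged 167 ± 6.70 TPM at 6 hpf and 193 ± 6.63 TPM at 0 hpf, a log2 change of -0.20 (adjusted p = 0.0459) that was 1.35 and called higher after scaling, and it was the leading E2 transcript from 2 hpf on. Its call at 6 against 0 hpf was lost without 5 of the 6 libraries compared, all but the second 6 hpf replicate (highest adjusted p = 0.123). ube2d1b was higher on both scales, at 36.38, 45.48 and 36.89 TPM at 6 hpf, against 27.21, 16.39 and 25.44 TPM at 0 hpf (log2 change 0.78, SE 0.19, adjusted p = 0.00186). ube2w fell early, to 2.97 ± 0.636 TPM at 4 hpf, against 10.2 ± 1.5 TPM at 2 hpf, and was lower on both scales.

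ube2e2 was the single zygotic member, with a mean under 1 TPM at 0 hpf and at least 1 TPM by 6 hpf, a rule that leaves oocytes out. It had 11.04, 10.91 and 8.43 TPM at 6 hpf. Before that it was at 0.45, 0.27 and 0.03 TPM at 4 hpf, at 0.60, 1.03 and 0.11 TPM at 2 hpf and at 0.51, 0.14 and 0.51 TPM at 0 hpf, so its rise lay after 4 hpf. The log2 change was 3.16 for 6 against 4 hpf (SE 0.22, adjusted p = 3.78e-08) and 3.01 for 6 against 0 hpf, and both were called on both scales. The related ube2e1 was maternal and higher at 6 hpf on both scales, with 125.95, 117.09 and 117.78 TPM at 6 hpf, against 77.61, 62.20 and 68.56 TPM at 0 hpf (log2 change 0.79, SE 0.09, adjusted p = 1.61e-06). At 6 hpf ube2e1 still had more transcript per length than ube2e2 in every library. ube2e3 averaged 20.7 ± 2.11 TPM at 6 hpf and 32.3 ± 1.99 TPM at 0 hpf, lower as deposited (-0.62) and higher after scaling (0.89).

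ube2n genes, with the catalytically inactive partners ube2v1 and ube2v2, build chains that act as signals in DNA repair and immune pathways. ube2v2 had 15.11, 26.50 and 25.51 TPM at 4 hpf, against 43.38, 43.67 and 45.15 TPM at 2 hpf. At 6 hpf it had 53.59, 65.49 and 59.95 TPM, above every library at 0 hpf (43.70, 38.40 and 41.68 TPM). Its fall at 4 against 2 hpf (log2 change -0.99) and its rise at 6 against 4 hpf (1.41, SE 0.17, adjusted p = 5.09e-06) were called on both scales. ube2v1 and ube2nb were also lower at 4 than at 2 hpf (-1.06 and -1.32) and higher at 6 than at 4 hpf (0.33 and 0.77), with each of those calls present on both scales. Against 0 hpf, however, ube2v1 and ube2nb were lower at 6 hpf as deposited (-0.68 and -0.62) and higher after scaling (0.84 and 0.92), while ube2v2 was higher on both scales (0.52 and 2.05). ube2na was at 75.5 ± 11.3 TPM at 4 hpf, against 95.1 ± 6.95 TPM at 2 hpf (log2 change -0.34, and 0.26 and not called after scaling). Its call was lost without replicate 2 or 3 of 2 hpf or replicate 1 of 4 hpf (highest adjusted p = 0.162).

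ube2a and ube2b are the vertebrate counterparts of yeast RAD6 and act on histone H2B and on the replication clamp. ube2a averaged 19.9 ± 2.72 TPM at 6 hpf and 44.3 ± 1.62 TPM at 0 hpf, lower as deposited (-1.12) and higher after scaling (0.39). ube2b was scarce but higher on both scales, at 3.80, 3.82 and 2.90 TPM at 6 hpf, against 1.65, 1.16 and 1.86 TPM at 0 hpf (log2 change 0.82, SE 0.15, adjusted p = 0.00023). ube2al, for which no role is given here, was abundant in the egg and reduced mostly after 4 hpf. It had 34.20, 45.10 and 44.72 TPM at 6 hpf, against 123.84, 114.79 and 157.77 TPM at 4 hpf, and 189.71, 170.61 and 168.41 TPM at 2 hpf and 172.27, 168.39 and 169.13 TPM at 0 hpf. The log2 change at 6 against 4 hpf was -1.65 (SE 0.13, adjusted p = 8.68e-08) and -0.72 after scaling. At 6 against 0 hpf it was -2.02 as deposited and -0.48 after scaling, called lower on both scales. At 4 against 2 hpf it was -0.42 as deposited and 0.17 and not called after scaling, and the call was lost without the second 4 hpf replicate (-0.33, adjusted p = 0.0524).

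The endoplasmic reticulum E2 enzymes, ube2j1, ube2j2 and ube2g2, help to remove misfolded proteins from that compartment. ube2g2 had 4.42, 4.30 and 4.33 TPM at 6 hpf, against 59.15, 54.56 and 53.72 TPM at 0 hpf (log2 change -3.41, SE 0.15, adjusted p = 1.77e-10). Most of that lay after 4 hpf, where it still had 29.50, 20.58 and 33.49 TPM (6 against 4 hpf, -2.40). ube2j2 fell to 7.32 ± 0.587 TPM at 6 hpf, against 30.2 ± 2.63 TPM at 0 hpf, on both scales, and ube2j1 averaged 4.21 ± 0.275 TPM at 6 hpf and 13.8 ± 2.34 TPM at 0 hpf, lower as deposited and not called after scaling (-0.13). Of 17 tested genes of that degradation pathway 0 were higher and 17 lower at 6 than at 0 hpf (median log2 change -1.38), and 6 higher and 6 lower after scaling. For all genes it was 21.9% higher and 67.2% lower (median -1.06), and 44.9% and 39.2% after scaling. ube2g1a and ube2g1b have their role in degradative chains. ube2g1a averaged 66.0 ± 8.93 TPM at 6 hpf and 96.2 ± 9.37 TPM at 0 hpf, lower as deposited (-0.54) and higher after scaling (1.0), and ube2g1b was at 125 ± 5.40 TPM at 6 hpf and 124 ± 4.39 TPM at 0 hpf (log2 change 0.02, and 1.57 and called higher after scaling).

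ube2z, charged by the E1 enzyme uba6, showed the largest fall of any member at 6 against 0 hpf. It had 5.53, 6.98 and 6.16 TPM at 6 hpf, against 114.67, 110.59 and 124.49 TPM at 0 hpf (log2 change -4.03, SE 0.15, adjusted p = 7.05e-11, and -2.58 after scaling). At 4 hpf it had 24.72, 19.88 and 33.72 TPM, against 110.12, 100.61 and 100.09 TPM at 2 hpf, so it was already low there. UBE2O, a large enzyme that combines E2 and E3 functions, had 1.09, 1.55 and 1.66 TPM at 6 hpf, against 21.85, 20.36 and 21.34 TPM at 0 hpf (log2 change -3.20, SE 0.16, adjusted p = 7.54e-10). ube2ka and ube2kb, which build degradative chains, and ENSDARG00000101618 were also lower on both scales, at 2.20 ± 0.511, 14.2 ± 1.85 and 4.95 ± 1.51 TPM at 6 hpf, against 15.4 ± 0.451, 51.9 ± 1.80 and 27.1 ± 1.02 TPM at 0 hpf. ube2l3a and ube2l3b serve HECT and RBR ligases, ube2h the CTLH ligase and ube2r2 the cullin ligases. ube2l3a was at 82.8 ± 0.903 TPM at 6 hpf and 74.4 ± 0.384 TPM at 0 hpf (log2 change 0.15, adjusted p = 0.0602) and was called higher after scaling (1.70). ube2h and ube2l3b were lower as deposited (-0.75 and -0.42) and higher after scaling (0.76 and 1.11). ube2r2 and ube2q1 were lower as deposited (-1.54 and -1.64) and not called after scaling (-0.09 and -0.10). ube2q2 was not called as deposited (0.21) and higher after scaling (1.74). The same held for ube2ql1 (-0.41 as deposited, 0.57 after scaling, limma adjusted p = 0.0384 after scaling), which lay between 1.08 and 2.91 TPM in all embryo libraries.

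SUMO has a single E2, encoded in zebrafish by ube2ia and ube2ib. ube2ia had 39.54, 44.52 and 58.31 TPM at 4 hpf, against 122.11, 124.46 and 114.60 TPM at 2 hpf. ube2ib had 84.55, 66.36 and 100.33 TPM at 4 hpf, against 169.62, 152.88 and 154.42 TPM at 2 hpf. Both were lower at 4 hpf on both scales (log2 changes -1.34 and -0.93 as deposited, -0.75 and -0.34 after scaling), with no overlap between libraries of the 2 times. At 6 hpf ube2ia had 55.39, 62.59 and 65.27 TPM and ube2ib 71.52, 79.67 and 74.89 TPM, and at 0 hpf ube2ia had 128.44, 129.83 and 127.78 TPM and ube2ib 143.58, 159.25 and 153.03 TPM. Against 0 hpf both were lower at 6 hpf as deposited (-1.07 and -1.0) and higher after scaling (0.48 and 0.55). The rise of ube2ia at 6 against 4 hpf (0.37) was lost without replicate 1 of 4 hpf or replicate 3 of 6 hpf (highest adjusted p = 0.0613). Of 13 tested SUMO ligases and proteases 0 were higher and 12 lower at 6 than at 0 hpf, and 8 higher and 5 lower after scaling. Their median log2 change was -1.10, near the -1.06 of all genes tested. Of all genes 21.9% were higher and 67.2% lower, and 44.9% and 39.2% after scaling.

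The NEDD8 E2 enzymes, which with their ligases modify and activate cullins, moved in opposite directions on both scales. UBE2M had 46.18, 47.80 and 48.91 TPM at 6 hpf, against 27.63, 27.04 and 27.04 TPM at 0 hpf (log2 change 0.78, SE 0.09, adjusted p = 3.82e-06). Before that it had 26.14, 23.14 and 25.91 TPM at 4 hpf, against 24.99, 28.57 and 30.88 TPM at 2 hpf, which overlap (log2 change -0.16, adjusted p = 0.155, and 0.42 and called higher after scaling). ube2f, which pairs with cullin 5 complexes, had 8.15, 10.54 and 8.61 TPM at 6 hpf, against 37.04, 33.56 and 33.92 TPM at 0 hpf (log2 change -1.83, SE 0.13, adjusted p = 1.81e-08, and -0.36 after scaling). Most of that was present by 4 hpf, with 12.80, 12.71 and 16.10 TPM at 4 hpf, against 32.26, 26.82 and 33.00 TPM at 2 hpf. The change of ube2f at 6 against 4 hpf turned with the scale (-0.56 as deposited, 0.32 after scaling, both called). Of 20 cullin and NEDD8 pathway genes 1 was higher and 17 lower at 6 than at 0 hpf (median log2 change -1.77), and 7 higher and 10 lower after scaling. Beside them, 21.9% of all genes were higher and 67.2% lower (median -1.06), and 44.9% and 39.2% after scaling.

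Other steps of the cascade were counted in the same comparison. Of 10 E1 enzyme genes 1 was higher and 9 lower at 6 than at 0 hpf (median log2 change -1.41), and 3 higher and 4 lower after scaling. Of 10 E2-like and E2 variant genes under other names 0 were higher and 9 lower (median log2 change -2.91), and 2 higher and 8 lower after scaling. Of 12 RAD6, RAD18 and signalling-chain ligase genes 1 was higher and 9 lower (median -1.77), and 4 higher and 6 lower after scaling. Of the ubiquitin and ubiquitin-like modifiers 9 of 15 were higher and 5 lower (median 0.38), and 12 higher and 2 lower after scaling. All these medians stand beside -1.06 for all genes tested. The counts stand beside 21.9% of all genes higher and 67.2% lower, and 44.9% and 39.2% after scaling. In stage IV against stage I oocytes the E1 genes counted 2 higher and 3 lower, the APC/C genes 1 higher and 6 lower, the SUMO ligases and proteases 0 higher and 9 lower, the modifiers 5 higher and 1 lower, the E2-like genes 1 higher and 0 lower, the Fanconi anaemia genes 2 higher and 5 lower, the cullin and NEDD8 genes 4 higher and 7 lower, the endoplasmic reticulum degradation genes 4 higher and 8 lower, and the RAD6, RAD18 and signalling-chain ligases 1 higher and 5 lower, where 22.9% of all genes were higher and 22.4% lower. In znf281b KD against pCas13d alone embryos, where 6.32% of all genes were higher and 3.05% lower, the counts in limma were 4 higher and 0 lower of 20 cullin and NEDD8 pathway genes, 2 and 0 of 10 E1 genes, 2 and 2 of 15 modifiers, 0 and 1 of 18 APC/C genes and 1 and 0 of 17 tested genes of endoplasmic reticulum degradation. None was called among 10 E2-like genes, 13 tested Fanconi anaemia genes, 13 tested SUMO ligases and proteases and 12 RAD6, RAD18 and signalling-chain ligase genes.

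Copies were also set against each other within each library, as the log2 ratio of TPM + 1, for 7 pairs. The added 1 pulls the ratio towards 0 where a copy is at a few TPM, as ube2b and ube2ka are. The ratios were compared across the 4 times by an exact permutation test over the 12 libraries (369600 arrangements, smallest possible p = 6.5e-05, two-sided, unadjusted, 7 pairs tested). The ube2na to ube2nb ratio was 0.11 ± 0.15 at 0 hpf, 0.43 ± 0.09 at 2 hpf, 1.41 ± 0.36 at 4 hpf and 0.95 ± 0.09 at 6 hpf (SD, n = 3 each, exact permutation p = 6.5e-05). All 4 and 6 hpf libraries were above all earlier libraries. The ube2d1a to ube2d1b ratio was 1.1 at 0 hpf, 1.07 at 2 hpf, 0.32 at 4 hpf and -0.93 at 6 hpf (exact permutation p = 0.00071). In these libraries ube2d1a had the more transcript at 0 hpf and ube2d1b at 6 hpf. At oocyte stages I to IV that ratio was -0.14, -0.45, 0.38 and 0.74. It was -0.37 in pCas13d alone and -0.32 in znf281b KD embryos at 4 hpf. Differences of ratios between the tables were not tested.

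The ube2a to ube2b ratio was near 4 until 4 hpf (4.16, 4.09 and 4.14 at 0, 2 and 4 hpf) and 2.21 at 6 hpf, with ube2a the more abundant throughout (exact permutation p = 0.016, and p = 0.057 with the replicate number as a block). For ube2ia to ube2ib the ratio was -0.24, -0.40, -0.81 and -0.30 at 0, 2, 4 and 6 hpf (exact permutation p = 0.0031), lowest at 4 hpf. For ube2g1a to ube2g1b it was -0.36, -0.06, -0.23 and -0.92 (p = 0.0029), for ube2l3a to ube2l3b 0.45, 0.22, 0.47 and 1.03 (p = 0.0047), and for ube2ka to ube2kb -1.69, -1.60, -2.42 and -2.25 (p = 0.023), by the same exact permutation test. The last p was 0.051 without replicate 2 and 0.05 without replicate 3 of 4 hpf. The ube2l3a to ube2l3b ratio was -0.75 in pCas13d alone and -0.85 in znf281b KD embryos, so its sign at 4 hpf differed between the tables. For the other pairs of this paragraph the mean ratios at 4 hpf had the same sign in both tables. With 0.1 added in place of 1, the shift of 6 minus 0 hpf was -2.29 in place of -1.94 for ube2a to ube2b (exact permutation p = 0.013) and -0.91 in place of -0.56 for ube2ka to ube2kb (p = 0.0093).

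**Figure D4:**
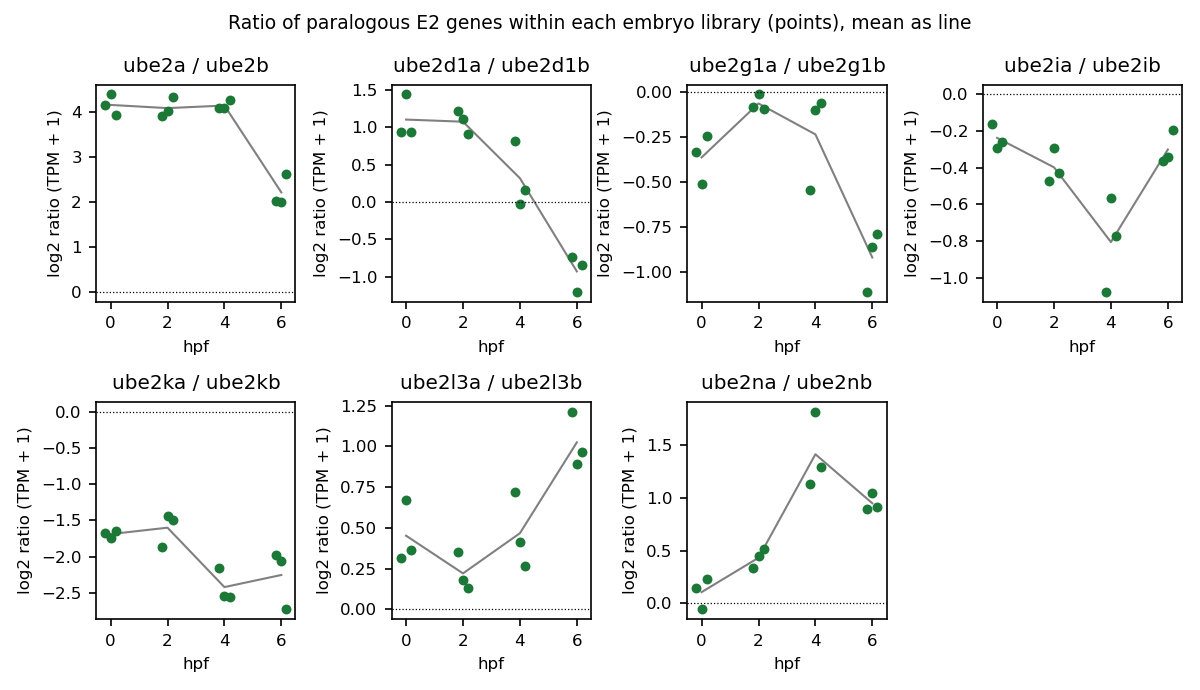
Log2 ratio of TPM + 1 of the a to the b copy of 7 E2 gene pairs in each embryo library (points, 3 per time) against hours post fertilization, with the mean as a line and a dotted line at a ratio of equal levels. The ube2d1 ratio passes from above to below 0 between 4 and 6 hpf, and the ube2n ratio is highest at 4 hpf.

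In oocytes the summed level of the members was 3482 ± 139 TPM at stage I, 3599 ± 123 TPM at stage II, 3549 ± 27.4 TPM at stage III and 3814 ± 168 TPM at stage IV (SD, n = 2 each). ube2c (ENSDARG00000114670) was the leading member at all 4 stages, with 268.21 and 346.49 TPM at stage I and 441.08 and 405.72 TPM at stage IV. Few members, and few of all genes, were called between consecutive stages before stage IV. With 2 libraries a stage, a member that was not called may still have changed. At stage II against stage I 0 members were called in limma (0.156% of all 16067 genes tested were higher and 0.0187% lower). An unadjusted limma p under 0.05 was found there for 4 of 41 members and for 1833 of those 16067 genes. At stage III against stage II 0 were higher and 1 was lower (2% and 0.529% of all genes). That member, ube2d2, had 41.08 and 47.63 TPM at stage III, against 115.78 and 102.44 TPM at stage II (log2 change -1.28, SE 0.17, adjusted p = 0.0133). Its call was lost on leaving out any 1 of those 4 libraries (highest adjusted p = 0.152).

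At stage IV against stage I 10 members were higher and 11 lower (22.9% and 22.4% of all genes), with a median log2 change of 0.17 for the members and -0.07 for all genes. After scaling 11 were higher and 9 lower (26.2% and 21.7% of all genes). At stage IV against stage III 5 were higher and 5 lower (14.3% and 13.3% of all genes). ube2al fell most, with 24.56 and 24.49 TPM at stage IV, against 109.36 and 115.79 TPM at stage III and 159.92 and 139.79 TPM at stage I. Its log2 change was -2.56 for stage IV against stage I (SE 0.15, adjusted p = 3.19e-05) and -2.15 for stage IV against stage III, both called in every alternative run. ube2q1 had 22.45 and 36.65 TPM at stage IV, against 114.46 and 87.56 TPM at stage III and 106.97 and 77.86 TPM at stage I (stage IV against stage I, -1.63, SE 0.27, adjusted p = 0.002). In both genes the stage IV libraries lay below all others. ube2j1 had 11.08 and 11.43 TPM at stage IV, against 23.40 and 19.36 TPM at stage III and 30.32 and 23.04 TPM at stage I. ube2j2, ube2d2 and ube2z were also lower at stage IV than at stage I (-1.12, -1.09 and -0.96).

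On the rising side ube2ka had 61.00 and 67.09 TPM at stage IV, against 38.47 and 41.13 TPM at stage III and 31.03 and 21.11 TPM at stage I (stage IV against stage I, 1.29, SE 0.21, adjusted p = 0.00186). The SUMO E2 gene ube2ib had 360.30 and 278.80 TPM at stage IV, against 191.39 and 223.23 TPM at stage III and 185.96 and 170.07 TPM at stage I (0.83, SE 0.18, adjusted p = 0.00667). Its copy ube2ia was at 204.64 and 147.13 TPM at stage IV and 167.11 and 141.40 TPM at stage I, which overlap (0.17, adjusted p = 0.498). ube2d2l averaged 202 ± 9.62 TPM at stage IV and 119 ± 5.98 TPM at stage I (0.76). ENSDARG00000101618 had 47.98 and 54.43 TPM at stage IV, against 21.62 and 27.96 TPM at stage III and 30.04 and 22.54 TPM at stage I (0.95). ube2e2 was at 5.13 and 3.19 TPM at stage IV, against 0.82 and 0.08 TPM at stage I (1.85, SE 0.37, adjusted p = 0.00505). The NEDD8 genes UBE2M and ube2f averaged 103 ± 5.54 and 48.0 ± 10.0 TPM at stage IV, and 81.0 ± 23.9 and 27.8 ± 9.52 TPM at stage I (0.37, not called, and 0.79, called). ube2s averaged 122 ± 4.00 TPM at stage IV and 106 ± 11.3 TPM at stage I (0.20, adjusted p = 0.311), and ube2c (ENSDARG00000114670) was not called either (0.47, adjusted p = 0.101).

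With 2 libraries a stage, 4 of the 10 higher calls and 6 of the 11 lower calls of stage IV against stage I held without each library in turn. These were ube2e2, ube2ka, ube2ib and ube2d2l on the higher side and ube2al, ube2q1, ube2j1, ube2j2, ube2d2 and ube2z on the lower side. For stage IV against stage III 0 of 5 higher calls and 2 of 5 lower calls held, ube2al and ube2q1. At stage IV against stage I the higher calls of ube2t and ube2f were among those lost (highest adjusted p = 0.183 and 0.202). The share of calls over all genes that held in this way was not computed. Markers of other ovarian cells moved with stage. The summed TPM of 11 follicle cell markers was 360.64 to 404.69 at stage IV, against 69.02 to 75.33 at stage I, with 9 and 3 of them at 1 TPM or more. That of 9 stromal and vascular wall markers was 146.02 to 263.16 at stage IV, against 6.54 to 7.15 at stage I. That of 12 blood, endothelial and immune genes was 230.87 to 1075.58 at stage IV, against 14.04 to 14.49 at stage I. The summed TPM of the 10 oocyte and maternal markers was 5126.17 to 7495 at stage IV, against 13212.5 to 14606.5 at stage I. The part of other ovarian cells in these results was not tested.

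The knockdown table compares embryos with a lower znf281b level and their controls at 4 hpf. The summed level of the members was 5708 ± 229 TPM in znf281b KD embryos and 5210 ± 183 TPM in pCas13d alone embryos (SD, n = 3 each), and 40 of the 41 members were tested, without ube2e2. 6 members were higher and 0 lower in znf281b KD embryos (6.32% and 3.05% of 15068 genes tested), with a median log2 change of 0.10 for the members and 0.09 for all genes. In each of the 6 called members the libraries of the 2 groups did not overlap. These members were picked by the same values, so this lends the calls no further support. The share of all genes without overlap was not computed, so overlap is not read here as a result about the members. 5 of the 6 belong to the 22 cleared members (22.7%), where 9.22% of the 8145 cleared genes tested were called higher, and ube2e3 is a kept member.

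ube2al had 461.22, 485.95 and 459.51 TPM in znf281b KD embryos, against 307.98, 307.96 and 232.00 TPM in pCas13d alone embryos (log2 change 0.74, SE 0.12, adjusted p = 0.00965). ube2g2 had 92.26, 103.71 and 104.43 TPM in znf281b KD embryos, against 52.62, 60.48 and 42.48 TPM in pCas13d alone embryos (0.95, SE 0.14, adjusted p = 0.00752). These 2 kept their call under every alternative run, with adjusted p up to 0.0496 for ube2al and 0.0396 for ube2g2. ube2q1 had 33.26, 33.00 and 19.97 TPM in znf281b KD embryos, against 14.03, 13.99 and 10.70 TPM in pCas13d alone embryos (1.07, SE 0.22, adjusted p = 0.0234). ube2ib had 213.74, 239.79 and 247.07 TPM in znf281b KD embryos, against 156.84, 178.63 and 132.06 TPM in pCas13d alone embryos (0.59, SE 0.12, adjusted p = 0.0235). Both were also called after scaling. ube2r2 had 76.28, 91.92 and 91.08 TPM in znf281b KD embryos, against 59.92, 68.59 and 63.37 TPM in pCas13d alone embryos (0.43, adjusted p = 0.0491). ube2e3 had 127.21, 117.68 and 110.84 TPM in znf281b KD embryos, against 90.95, 93.58 and 94.02 TPM in pCas13d alone embryos (0.35, adjusted p = 0.047). These last 2 were lost after scaling.

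Leaving out a library ended the calls of ube2q1 (without the first pCas13d alone or the first or second znf281b KD library, highest adjusted p = 0.0996), of ube2ib (without the first pCas13d alone or any znf281b KD library, highest adjusted p = 0.0964), and of ube2r2 and ube2e3 (without any single library but the second pCas13d alone one, highest adjusted p = 0.193 and 0.191). ube2t had 13.31, 12.67 and 7.95 TPM in znf281b KD embryos, against 6.00, 7.11 and 6.06 TPM in pCas13d alone embryos, which did not overlap, but it was not called (0.71, adjusted p = 0.0752). ube2z was similar, at 23.2 ± 1.05 TPM in znf281b KD embryos and 14.9 ± 3.55 TPM in pCas13d alone embryos (0.63, adjusted p = 0.0698). On the lower side, ube2c (ENSDARG00000114670) had 40.07, 37.66 and 36.53 TPM in znf281b KD embryos, against 53.60, 44.90 and 59.26 TPM in pCas13d alone embryos (-0.45, adjusted p = 0.0627), and ube2v2 averaged 55.1 ± 3.56 TPM in znf281b KD embryos and 79.9 ± 16 TPM in pCas13d alone embryos (-0.51, adjusted p = 0.0688). Both were called lower after scaling (-0.55 and -0.62), where the counts were 4 members higher and 2 lower, among 4.8% and 3.94% of all genes. ube2s had 51.43, 50.43 and 72.95 TPM in znf281b KD embryos and 58.89, 51.97 and 37.40 TPM in pCas13d alone embryos, which overlap.

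The remaining SUMO and NEDD8 genes were not called. ube2ia had 136.05, 128.65 and 121.42 TPM in znf281b KD embryos and 120.41, 147.33 and 137.86 TPM in pCas13d alone embryos. UBE2M had 125.08, 116.77 and 128.64 TPM in znf281b KD embryos and 123.30, 119.86 and 146.69 TPM in pCas13d alone embryos. ube2f had 45.10, 48.74 and 47.17 TPM in znf281b KD embryos and 50.34, 55.55 and 42.61 TPM in pCas13d alone embryos. The libraries of the 2 groups overlapped in all 3 genes. The zygotic member ube2e2 was at 0.70, 0.02 and 0.81 TPM in znf281b KD embryos and 0.75, 1.08 and 0.32 TPM in pCas13d alone embryos, below the filter for testing. ENSDARG00000101618 averaged 15.6 ± 1.53 TPM in znf281b KD embryos and 14.8 ± 1.54 TPM in pCas13d alone embryos (0.07, adjusted p = 0.792). The summed TPM of the 10 oocyte and maternal markers was 969.61 to 1002.39 in znf281b KD embryos, against 437.91 to 725.94 in pCas13d alone embryos. That of the 12 genome activation markers was 2060.99 to 2107.61 in znf281b KD embryos, against 2646.96 to 3424.40 in pCas13d alone embryos, and 7 of those 12 were called lower. The part in these E2 results of a difference in developmental progress between the groups was not tested.

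**Figure D5:**
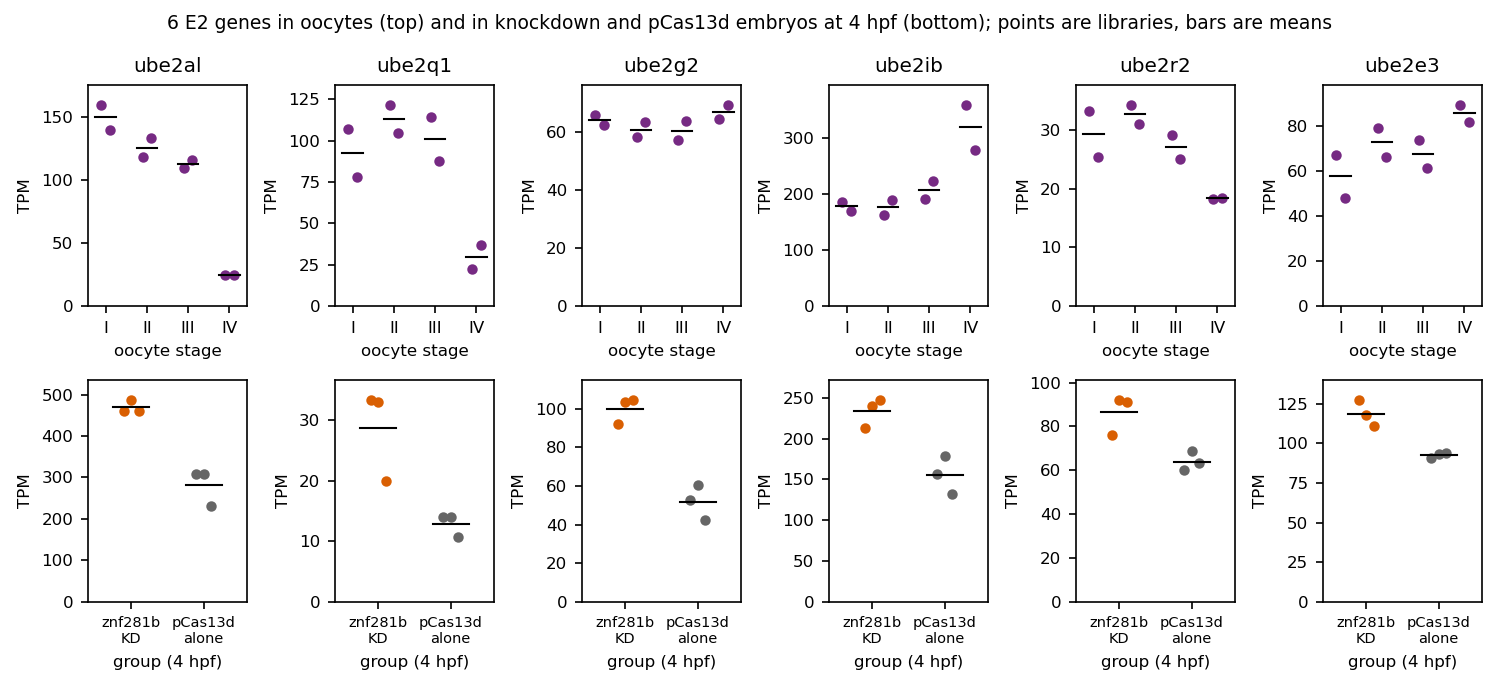
TPM (vertical axes) of the 6 E2 genes called in the knockdown, in oocytes of stages I to IV (top row, 2 libraries per stage) and in znf281b KD and pCas13d alone embryos at 4 hpf (bottom row, 3 libraries each). Points are libraries and short bars are means. ube2al and ube2q1 are lowest at stage IV. Each of the 6 genes, picked by their calls in these same libraries, is higher in every znf281b KD library than in every pCas13d alone library.

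The levels of ube2al and ube2t in all 10 groups are given here table by table. The mean of ube2al was 150, 126, 113 and 24.5 TPM at oocyte stages I, II, III and IV in the oocyte table. It was 170, 176, 132 and 41.3 TPM at 0, 2, 4 and 6 hpf in the embryo table, and 469 TPM in znf281b KD embryos and 283 TPM in pCas13d alone embryos in the knockdown table. ube2t was at 162, 177, 183 and 244 TPM at stages I to IV, at 94.0, 79.0, 9.10 and 11.0 TPM at 0, 2, 4 and 6 hpf, and at 11.3 TPM in znf281b KD embryos and 6.39 TPM in pCas13d alone embryos. The tables hold different experiments and were normalised separately, so levels set across them were not tested.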

How the data were processed

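Zebrafish oocytes, embryos and znf281b KD embryos were measured by RNA-seq in 26 libraries. The authors deposited 3 tables of TPM per gene, which keep no read depth, so the counting precision of each value is unknown. STAR 2.7.3a, RSEM and the danRer11 build are named per the submitters' processing notes, and the annotation release is not given in the sources used here. RSEM divides reads between similar copies, so single values of paralogues are estimates. 0 columns of other samples were present.

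From the deposited TPM, a gene was kept where 3 or more libraries of its table (2 or more among oocytes) reached 1 TPM. Values were put on a log2(TPM + 1) scale and each table was fitted once, with a trend on the variance (limma 3.58.1, R 4.3.3), and p-values were adjusted over all genes tested by Benjamini-Hochberg. The script was tested on simulated data. Groups follow the labels. The members and all gene lists were chosen with earlier results of these data known. Per comparison the text names the 3 called members with the largest changes in each direction and at least 5 TPM in the higher group, beside members picked for their role. Alternatives were median-of-ratios scaling, a pseudocount of 0.1, no filter, leaving out each replicate and the replicate number as a block. Same-numbered libraries deviated together between 6 and 4 hpf (correlations 0.32, 0.127 and 0.181) and between stages II and I (0.437). The limma tests given in the text do not pair libraries by number, and the block was run only as an alternative.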

Additional observations from a re-analysis of the deposited data

How the results depend on the processing

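Of 133 single-gene calls, scaling turned the sign of the log2 change in 26 and ended 17 others with the sign kept. Not all of the 26 were called after scaling. Those called in the opposite direction were 11 at 6 against 0 hpf and 3 at 6 against 4 hpf. After median-of-ratios scaling the members called were 22 higher and 14 lower at 6 against 0 hpf, 10 higher and 15 lower at 4 against 2 hpf, and 24 higher and 11 lower at 6 against 4 hpf. It also called 1 member higher at stage III against stage II and 2 lower in znf281b KD embryos. Log2 changes that turned from negative to positive after scaling were, at 4 against 2 hpf, ube2al 0.17, ube2na 0.26, ube2e3 0.10, ube2kb 0.17, ube2l3b 0.22, ube2d1a 0.08, ube2r2 0.17, ube2j2 0.23 and ube2d2l 0.05. At 6 against 0 hpf they were ube2h 0.76, ube2ib 0.55, ube2e3 0.89, ube2g1a 1.00, ube2l3b 1.11, ube2d1a 0.27, ube2s 0.14, ube2v1 0.84, ube2d2 1.35, ube2nb 0.92, ube2ia 0.48, ube2a 0.39 and ube2c (ENSDARG00000114670) 1.01. At 6 against 4 hpf they were ube2h 0.32, ube2g1a 0.30, ube2f 0.32 and ube2d1a 0.18. The other alternatives turned the sign of no single-gene call. A pseudocount of 0.1 gave 2 lower members at stage III against stage II and 9 higher at stage IV against stage I. It gave 4 higher at stage IV against stage III and 4 higher in znf281b KD embryos. With no filter 7 members were higher and 10 lower at stage IV against stage I. Also with no filter, 3 members were higher at stage IV against stage III and 2 in znf281b KD embryos. In the embryo series that run gave 7 higher and 29 lower at 6 against 0 hpf, 27 lower at 4 against 2 hpf and 11 higher at 6 against 4 hpf. With the replicate number as a block the ube2a to ube2b shift of -1.94 had an exact permutation p of 0.057, 29 members were lower at 6 against 0 hpf, and 4 were higher in znf281b KD embryos. The block also gave 11 higher and 12 lower members at stage IV against stage I. At 6 against 4 hpf, where same-numbered libraries deviated together, the block changed no count of members. Counts over all genes moved under these alternatives too and are not given here. The causes were not tested.

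Leaving out 1 library gave 4 to 10 higher and 6 to 12 lower members at stage IV against stage I. Over all genes tested it gave 1953 to 3695 higher and 2331 to 3975 lower there. At stage III against stage II 0 members were lower, beside 0 to 22 of all genes. At stage IV against stage III 0 to 1 members were higher and 2 to 3 lower (634 to 1193 and 852 to 1421 of all genes). In znf281b KD embryos 2 to 6 members were higher and 0 to 1 lower (146 to 1692 and 161 to 623 of all genes). In the embryo time series 6 to 7 members were higher and 29 to 30 lower at 6 against 0 hpf (2702 to 3498 and 10673 to 10962 of all genes). At 4 against 2 hpf 26 to 29 members were lower (7599 to 9604 of all genes). At 6 against 4 hpf 9 to 15 members were higher and 19 to 23 lower (2729 to 3821 and 8500 to 9104 of all genes). The ube2ka to ube2kb shift of 6 minus 0 hpf ranged from -0.70 to -0.33. The depth behind the TPM is unknown, and 2 or 3 libraries per group limit the precision.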

Other observations

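The reference gene names give E2 names to 2 further genes that the tables list under other names. flj11011l, which is UBE2W in the reference, had 4.35 TPM at 6 hpf, against 20.7 TPM at 0 hpf (log2 change -2.03). CU062632.1, which is ube2o in the reference, had 1.12 TPM at 6 hpf, against 12.9 TPM at 0 hpf (log2 change -2.72).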
